A study of Mus musculus with 5 samples.

Results

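The genes encoding the suppressors of cytokine signalling, Socs1 to Socs7, and the related gene Cish were described across the cell types of mouse tumours. They were chosen by gene symbol, without regard to their values, and make up 8 of the 32285 genes counted. Single-cell RNA sequencing had been carried out on CD45+/PI- cells (live cells bearing the pan-leukocyte marker) sorted from flank tumours of Lewis lung carcinoma (LLC), a transplantable mouse lung cancer line. The LLC cells carried either a Scramble control or an sgRNA for JAG2 (JAG2KO), a ligand of Notch receptors, and 3 Scramble and 2 JAG2KO libraries were analysed. The guide was in the injected tumour cells, so the leukocytes of both groups are host cells, and tumours were collected at endpoint. Whether the JAG2KO cells were a pool or a clone is not given in the sources used here. Strain, age and sex of the mice are likewise not given, and nothing in the labels says whether each library stands for its own mouse. The p-values therefore speak of the spread among libraries, which may be technical.

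SOCS proteins are feedback inhibitors of cytokine signalling. Cytokine receptors activate Janus kinases (Jak), which phosphorylate signal transducers and activators of transcription (Stat), and the Stat proteins switch on genes that include Cish and several Socs genes. The SOCS proteins then bind the receptor or the kinase through an SH2 domain, and through a SOCS box they recruit an elongin and cullin ubiquitin ligase. Cish restrains interleukin 2 and T cell receptor signalling and is a classic Stat5 target. Socs1 blocks Jak kinases after interferon gamma, Socs2 restrains growth hormone signalling, and Socs3 binds gp130 and the G-CSF receptor and limits Stat3. Socs4 and Socs5 act on epidermal growth factor receptor signalling, and Socs6 and Socs7 on receptor tyrosine kinase and insulin signalling.

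Of the 4 members whose window was searched (Cish, Socs1, Socs3 and Socs4), Socs1 and Socs3 hold before the start site letters like those read by Stat and interferon regulatory factors, and their sequences (RefSeq, GRCm38.p6) are shown for that reason. For Socs1 the 250 bases before the start are printed (chr16:10785537-10785786, minus strand), and for Socs3 the bases 250 to 86 before the start (chr11:117969452-117969616, minus strand), the rest of that window, which holds 77 exonic bases, being left out. Capitals mark, in Socs1, GAAA followed after any 2 bases by GAAA, the core of an interferon-stimulated element, and, in Socs3, TTCNNNGAA, the core of a Stat element. Both strands were searched.
Socs1: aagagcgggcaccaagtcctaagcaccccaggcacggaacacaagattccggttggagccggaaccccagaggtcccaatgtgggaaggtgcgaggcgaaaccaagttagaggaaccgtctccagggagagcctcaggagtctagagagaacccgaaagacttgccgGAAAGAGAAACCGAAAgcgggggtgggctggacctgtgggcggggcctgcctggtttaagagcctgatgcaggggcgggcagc
Socs3: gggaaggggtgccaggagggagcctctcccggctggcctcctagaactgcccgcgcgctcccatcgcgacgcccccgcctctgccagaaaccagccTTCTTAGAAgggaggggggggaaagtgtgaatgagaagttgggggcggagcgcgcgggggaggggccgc
The capitals in Socs1 are 2 overlapping matches, 83 to 74 and 77 to 68 bases before the start. At least 1 such match stood in 2.98% of 32851 promoter windows of the same length and at least 2 in 0.180%. The capitals in Socs3 lie 154 to 146 bases before the start, and 7.02% of windows held such a match. RefSeq's start of Socs3 differs from the outermost start in GENCODE, so this match (chr11:117969512-117969520) lies inside the GENCODE gene body given below. Neither pattern was found in the windows of Cish, which is wholly exonic, and Socs4, and TTC and GAA with 4 bases between them (in 5.85% of windows) in none of the 4. A match is a string of letters and no measure of binding.

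The genes lie on different chromosomes except Socs3 and Socs7 (GRCm38, GENCODE vM21). Cish lies on the plus strand of chromosome 9 at 107296026 to 107302784, where the antisense gene Gm17041 and the pseudogene Gm17040 overlap it on the other strand; Gm17041 was counted as a gene of its own. Socs1 lies on the minus strand of chromosome 16 at 10782240 to 10785536, Socs2 on the minus strand of chromosome 10 at 95385362 to 95417180, and Socs3 on the minus strand of chromosome 11 at 117966079 to 117970047. Socs4 lies on the plus strand of chromosome 14 at 47276931 to 47296102, Socs5 on the plus strand of chromosome 17 at 87107679 to 87137839, Socs6 on the minus strand of chromosome 18 at 88665224 to 88927481, and Socs7 on the plus strand of chromosome 11 at 97362551 to 97398542. No counted gene overlapped the 7 Socs genes.

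The 5 libraries held 10262 to 21854 barcodes and 84788907 to 111680641 UMIs (unique molecular identifiers, each standing for 1 captured RNA molecule), against 10000 cells encapsulated per the series' design text. After filters, 53050 cells were kept. The second JAG2KO library stood apart, with 17791 kept cells at a median of 2082 UMIs against 7565 to 8437 in the other 4. In it 56.9% of kept cells passed no gate (22.1% to 23.2% elsewhere). Pairs of libraries shared 26 to 74 barcodes, at most 0.633% of the smaller library. The targeted gene did not check the labels at this depth in cells sorted for CD45: Jag2 stood at 4.05, 3.06 and 4.28 counts per 1000000 UMIs (CPM) over all kept cells with Scramble and 3.49 and 2.17 CPM with JAG2KO, and tumour-like cells held 0 to 3 Jag2 UMIs in each library.

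Cells were placed in classes by UMIs of marker genes, UMIs were summed over the cells of a class in each library, and levels are CPM of that sum. The tags come from the 3′ end of transcripts and were not scaled for length, so levels are compared between cells for each gene and not between genes. Macrophages were by far the most numerous class (4137 to 5949 cells in each library). Monocytes (205 to 504), neutrophils (181 to 811), type 1 and type 2 conventional dendritic cells (cDC1, 38 to 45, and cDC2, 53 to 122), mature dendritic cells (29 to 117), mast cells or basophils, natural killer (NK) cells, T cells and tumour-like cells were fewer. The tumour-like class (46 to 140 cells) was gated on Rhox5, a homeobox gene silent in most adult tissues. In these cells tumour markers summed to 774 to 1037 CPM and the 5 fibroblast markers, mostly collagens, to 3104 to 7087 CPM, while the sort should have removed tumour cells and fibroblasts alike. The 8 genes together gave 19943 to 32299 UMIs in each library, 0.0255% to 0.0356% of UMIs in kept cells.

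Each member had its own map across the cell types. Cish was highest in T cells, Socs1 in T cells, mature dendritic cells and NK cells, Socs2 in mature dendritic cells and mast cells or basophils, Socs3 in neutrophils, and Socs6 in tumour-like cells, monocytes and macrophages. Socs4 and Socs7 were comparatively even. Each class was tested against macrophages with edgeR's quasi-likelihood test, with the library as a block and Benjamini-Hochberg adjustment over 8781 genes, and the share of all genes that differed was large. Of the 8 members, 3 were higher and 2 lower in regulatory T cells (24.3% and 28.4% of all genes), in other T cells (23.8% and 26.3%) and in NK cells (25.4% and 28.2%). In cDC1 the counts were 2 and 2 (25.0% and 26.9%), in cDC2 3 and 1 (21.4% and 21.9%), in mature dendritic cells 4 and 2 (27.1% and 32.3%), and in monocytes 4 and 0 (26.6% and 29.6%). In neutrophils they were 4 and 2 (30.8% and 41.7%), in mast cells or basophils 2 and 1 (11.9% and 15.1%), and in tumour-like cells 2 and 4 (37.7% and 37.5%). With so many genes differing, these counts are no result about the members, which are described by the size and place of single differences.

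**Figure D1:**
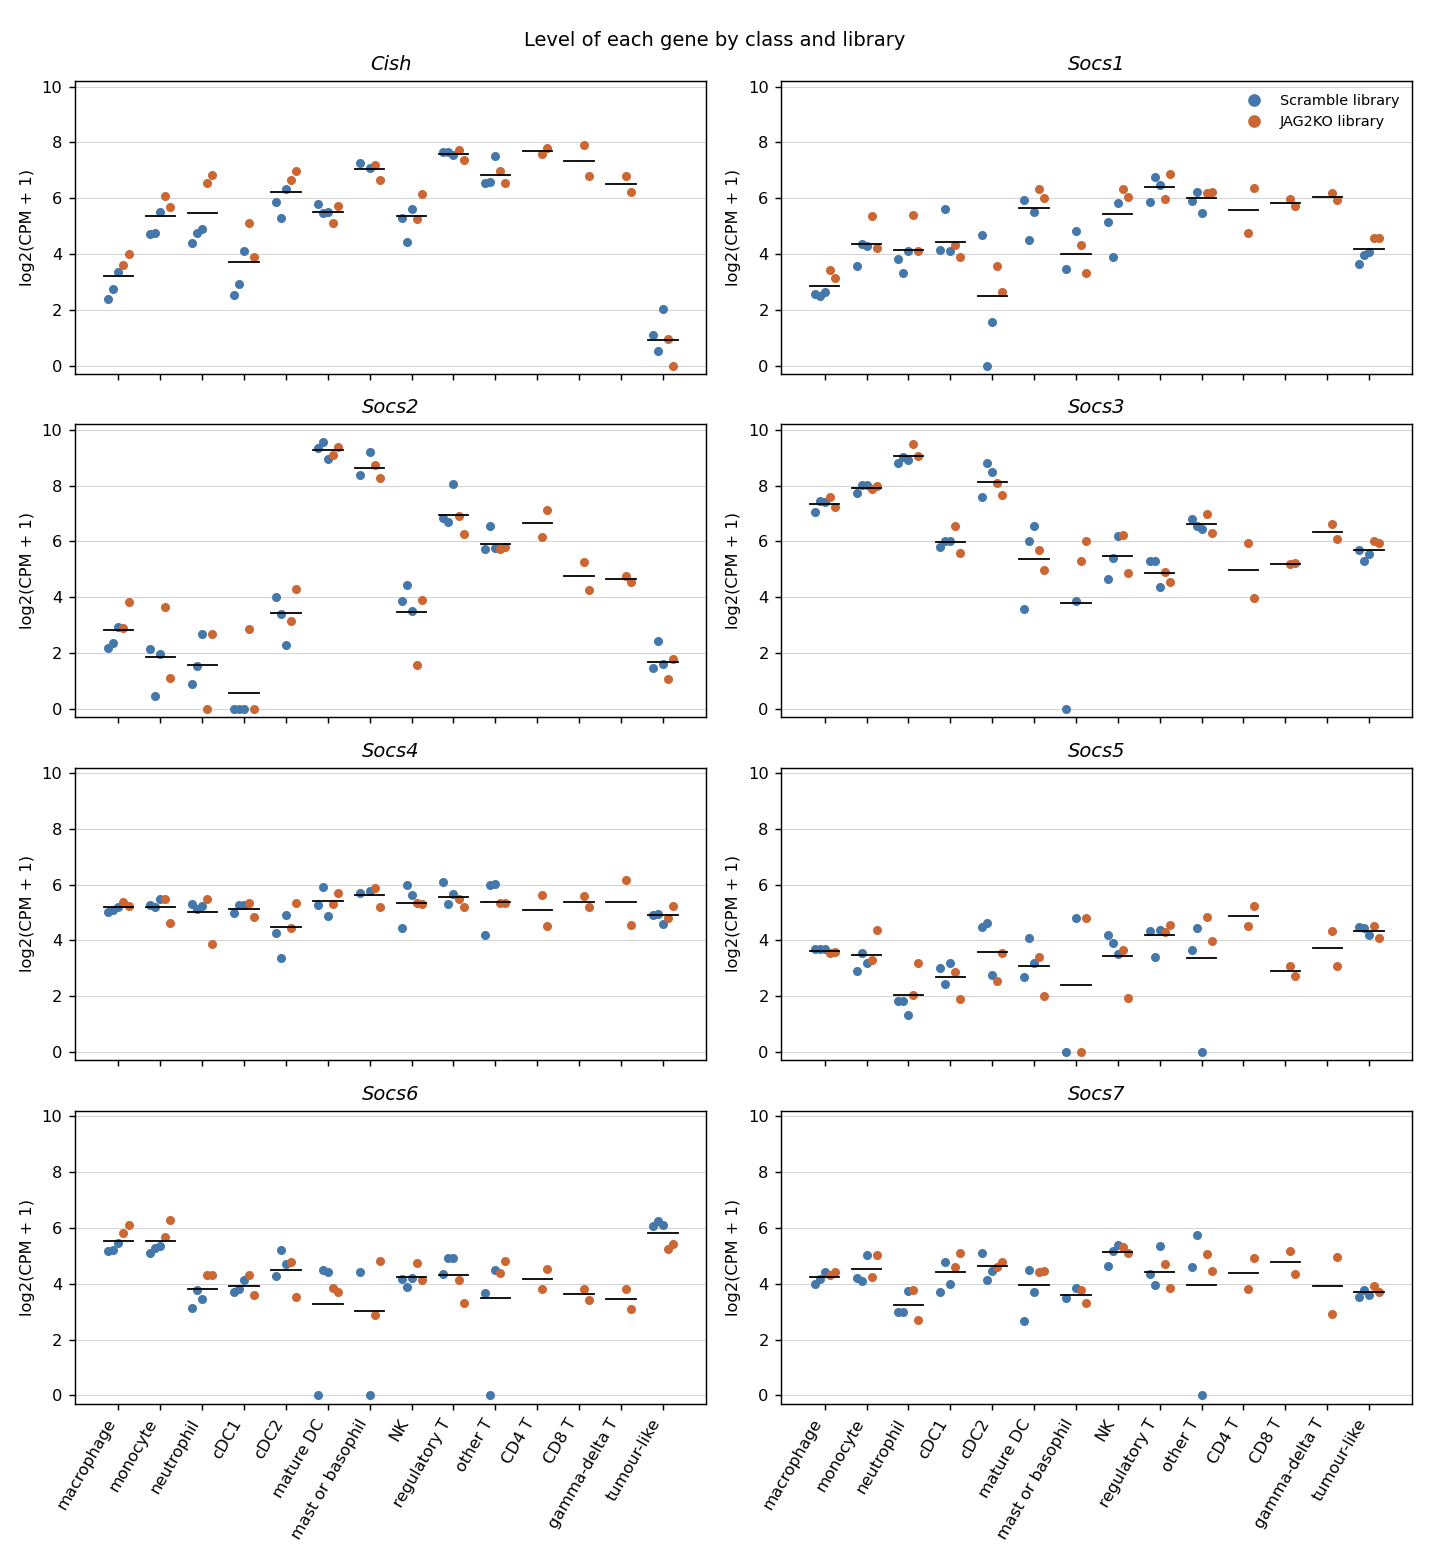
Level of each member (log2 of CPM + 1, vertical axis) in 14 cell classes (horizontal axis); each point is 1 library and the black line is the mean of the log2 values. Within each gene's own panel, Socs2 has its highest means in mature dendritic cells and in mast cells or basophils, Cish in CD4 and regulatory T cells and Socs3 in neutrophils, while Socs4 is nearly level.

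Cish, the Stat5 target that restrains T cell activation, stood at 201, 199 and 187 CPM with Scramble and at 210 and 165 CPM with JAG2KO in regulatory T cells. All of these lay above every macrophage value (4.25 to 15.1 CPM), and the fold over macrophages was 19.3 (adjusted p = 1.0e-21, edgeR's quasi-likelihood test with Benjamini-Hochberg adjustment). Regulatory T cells depend on interleukin 2 and carry its high-affinity receptor. Mast cells or basophils averaged 133 ± 23.7 CPM (SD, n = 4) and other T cells 117 ± 39.4 CPM (SD, n = 5), and cDC2 averaged 79.6 ± 33.9 CPM (SD, n = 5). In the JAG2KO libraries, where alone enough cells were found, CD4 T cells stood at 207 ± 20.7 and CD8 T cells at 174 ± 90.4 CPM (SD, n = 2). The ranges of neighbouring classes overlapped from CD4 T cells down to monocytes (42.6 ± 17.5 CPM, n = 5), so the order of neighbours is not resolved. Classes further apart in that order could be separate. The regulatory T cell libraries lay wholly above those of mast cells or basophils (up to 151.5 CPM), cDC2 (up to 124.4 CPM) and monocytes (up to 66.9 CPM). They overlapped those of other T cells (up to 183.5 CPM). Tumour-like cells had 0 to 6 Cish UMIs in a library and a mean of 1.11 CPM, lower than macrophages (fold 0.111, log2 -3.18, adjusted p = 1.5e-09, same test). That log2 difference was -2.49 with clusters in place of gates and -3.78 without the third Scramble library.

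Socs1, the inhibitor of interferon gamma signalling, was higher in regulatory T cells, at 57.5, 107 and 88.7 CPM with Scramble and 62.4 and 116 CPM with JAG2KO, than in macrophages, where it lay between 4.62 and 9.63 CPM. The groups of libraries did not overlap between these classes, and the fold was 11.2. Mature dendritic cells, the migrating form that carries Ccr7, were 11.04-fold above macrophages and other T cells 9.0-fold. NK cells, a main source of interferon gamma, were 8.08-fold above. Monocytes (3.78-fold), neutrophils (4.44-fold) and cDC1 (4.0-fold) came next, and tumour-like cells were 2.81-fold above. The adjusted p of these 8 classes was 1.3e-06 or lower in edgeR's quasi-likelihood test. The log2 difference of 1.92 in monocytes was 1.03 with clusters in place of gates, that of 2.15 in neutrophils was 1.38 with sums scaled by total UMIs, and that of 2.0 in cDC1 was 1.37 without the second Scramble library. cDC2, at 0 to 24.4 CPM, did not pass it (adjusted p = 0.482), nor did mast cells or basophils (adjusted p = 0.222). Macrophages had the lowest mean Socs1 level of the classes present in all 5 libraries.

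Socs2, best known as a brake on growth hormone signalling and also induced in dendritic cells, had the sharpest peak. In mature dendritic cells it stood at 645, 763 and 498 CPM with Scramble and 541 and 660 CPM with JAG2KO. Macrophages stood at 3.55 to 13.2 CPM, and the fold was 121 (adjusted p = 4.0e-31, edgeR's quasi-likelihood test). A Socs2 UMI was found in 81.4% to 91.5% of mature dendritic cells in each library (29 to 117 cells; median depths 4471 to 6476 UMIs) and in 3.57% to 14.8% of tumour-like cells, which are deeper at 21884 to 39926 UMIs. Mast cells or basophils averaged 412 ± 125 CPM (SD, n = 4), 70.0-fold above macrophages, and regulatory T cells 135 ± 74.9 CPM (SD, n = 5), 16.7-fold above. The range in regulatory T cells was wide, from 75.6 to 266 CPM. The other conventional dendritic cells did not share the peak: cDC2 averaged 10.99 CPM and cDC1 1.25 CPM, with 0 UMIs in the 3 Scramble libraries of the latter.

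Socs3, which limits Stat3 signalling from gp130 and the G-CSF receptor, was high in some of the myeloid classes. Among classes present in at least 2 libraries, its highest means were in neutrophils, cDC2, monocytes and macrophages. Neutrophils stood at 446, 525 and 482 CPM with Scramble and 720 and 534 CPM with JAG2KO. These lay above every other class except that the highest cDC2 library, at 448 CPM, overlapped the lowest neutrophil library. The fold over macrophages (163 ± 23.7 CPM, SD, n = 5) was 5.47 (log2 2.45, adjusted p = 1.0e-20, edgeR's quasi-likelihood test). With sums scaled by total UMIs the log2 difference was 1.70 and still passed. cDC2 averaged 294 ± 109 CPM and monocytes 242 ± 20.3 CPM (SD, n = 5 each), 2.01-fold and 1.67-fold above macrophages (adjusted p = 4.1e-07 and 2.6e-05, same test). The cDC2 call was lost with clusters in place of gates, where the log2 difference fell from 1.01 to 0.28 (adjusted p = 0.0731, same test). Every lymphoid class tested was lower than macrophages. Regulatory T cells averaged 29.6 ± 8.85 CPM (fold 0.156), NK cells 48.1 ± 24.1 CPM (fold 0.301) and other T cells 98.5 ± 18.9 CPM (fold 0.566). Mature dendritic cells (fold 0.380), cDC1 (fold 0.435), tumour-like cells (fold 0.330) and mast cells or basophils (fold 0.224, log2 -2.16, and -2.89 without the second JAG2KO library) were lower as well. The 19 dissociation and stress genes summed to 19780 to 25420 CPM in neutrophils and 9572 to 12680 CPM in macrophages, and their part in the Socs3 difference was not tested.

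Socs4 had means of 23.4 CPM in cDC2 to 49.5 CPM in mast cells or basophils. It passed the test in mature dendritic cells (1.502-fold above macrophages, adjusted p = 0.0163, edgeR's quasi-likelihood test) and in neutrophils. The mature dendritic cell call was lost in 5 of 10 alternatives, among them scaling by total UMIs (log2 0.22 against 0.59, adjusted p = 0.374) and leaving out the second Scramble (0.2398), the first JAG2KO (0.140) or the second JAG2KO library (0.154). The neutrophil difference of 0.74 on the log2 scale turned to -0.04 (adjusted p = 0.842) when sums were scaled by total UMIs instead of edgeR's trimmed mean of M values (TMM). That change of scaling moved the median gene by 0.77 in neutrophils and by 0.37 in mature dendritic cells; neutrophil markers summed to 86780 to 117931 CPM there. Socs5 was lower in neutrophils (3.60 CPM, fold 0.410, adjusted p = 0.00538) and higher in tumour-like cells (19.6 ± 2.61 CPM, SD, n = 5, fold 1.74, adjusted p = 4.3e-04) than in macrophages (11.5 ± 0.601 CPM, SD, n = 5; same test). The Socs5 call in neutrophils was lost without the third Scramble library (adjusted p = 0.0587, same test). With sums scaled by total UMIs the log2 differences in neutrophils went from -1.29 to -2.06 for Socs5 and from -1.18 to -1.95 for Socs6. Socs6 averaged 57.7 ± 17.2 CPM in tumour-like cells, 47.6 ± 17.8 in monocytes and 47.2 ± 13.7 in macrophages (SD, n = 5), and neither tumour-like cells nor monocytes passed the test against macrophages (adjusted p = 0.0759 and 0.560). It was lower in 7 of the other 8 classes, at folds of 0.346 to 0.579, and mast cells or basophils missed the threshold (adjusted p = 0.0523). Socs7 was highest in NK cells, 34.6 ± 6.70 CPM (SD, n = 5) or 1.86-fold above macrophages (adjusted p = 7.7e-04, same test), and was lower in tumour-like cells. In monocytes Socs7 was higher (log2 0.47, adjusted p = 0.00777, same test), a call lost with total UMI scaling (adjusted p = 0.0906) and without the third Scramble (0.1196) or the second JAG2KO library. In cDC2 it only just passed (log2 0.52, adjusted p = 0.0486), and 9 of 10 alternatives lost that call (adjusted p up to 0.263, without the first Scramble library).

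Genes with the most similar pattern were found by Pearson r of log2(mean CPM + 1) over the 14 classes present in at least 2 libraries, among 11356 genes. The classes share libraries and differ in depth, so r is only descriptive. For Cish these were Mapkapk3 (r = 0.934), Tent5a (0.901) and Akap13 (0.893). For Socs1 they were Lysmd2 (0.912), Gm37529 (0.907) and Tnfrsf9 (0.905), the last being the costimulatory receptor 4-1BB. For Socs2 they were Suox (0.867), Pde4d (0.840) and Uap1 (0.818), and for Socs3 Wfdc18 (0.934), E230013L22Rik (0.914) and Arhgap24 (0.891). Socs4 was nearest to Cog3 (0.904), Mad2l1bp (0.866) and Tesk2 (0.820), Socs5 to Ergic3 (0.844), Cul1 (0.835) and Nudcd3 (0.823), Socs6 to Capn2 (0.886), Laptm4a (0.883) and Vim (0.875), and Socs7 to Esyt1 (0.909), Ubac2 (0.898) and Mndal (0.886). Between members the strongest values were -0.668 for Cish with Socs6, 0.652 for Socs1 with Socs4 and 0.612 for Cish with Socs2.

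The second question was whether the members differed between tumours of Scramble and JAG2KO cells. Within classes, 55 tests of members could be made in 11 classes, and 4 passed an adjusted p of 0.05: Cish was 4.01-fold higher in neutrophils, Socs1 1.76-fold higher in macrophages, and in tumour-like cells Socs1 was 1.68-fold higher and Socs6 0.578-fold as high in JAG2KO libraries. The members called were 1 of 6 in neutrophils (0.557% of all genes tested there), 1 of 8 in macrophages (1.99%) and 2 of 6 in tumour-like cells (8.45%). None was called among 7 in monocytes (0.608%), 5 in cDC2 (1.45%), 3 in cDC1 (0.255%), 5 in mature dendritic cells (0.115%), 4 in regulatory T cells (0.152%), 4 in other T cells (0.0%), 5 in NK cells (0.0%) and 2 in mast cells or basophils (0.0%). In those 8 classes 6 of 35 tests had an unadjusted p under 0.05 with edgeR, and DESeq2 called none. Of all genes, an unadjusted edgeR p under 0.05 was found for 754 of 9048 in monocytes, 569 of 5385 in cDC2 and 413 of 5496 in cDC1. It was found for 143 of 3489 in mature dendritic cells, 218 of 3952 in regulatory T cells and 138 of 3340 in other T cells. In NK cells the count was 155 of 4817, and in mast cells or basophils 63 of 1511. Fewer cells of a type and less RNA per cell cannot be told apart in such sums when classes are mixed, and the makeup differed: T cells of all kinds made up 1.33%, 1.14% and 1.11% of kept Scramble cells and 5.24% and 3.09% of kept JAG2KO cells, and neutrophils 7.87%, 8.54% and 9.43% against 1.92% and 1.46%.

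**Figure D2:**
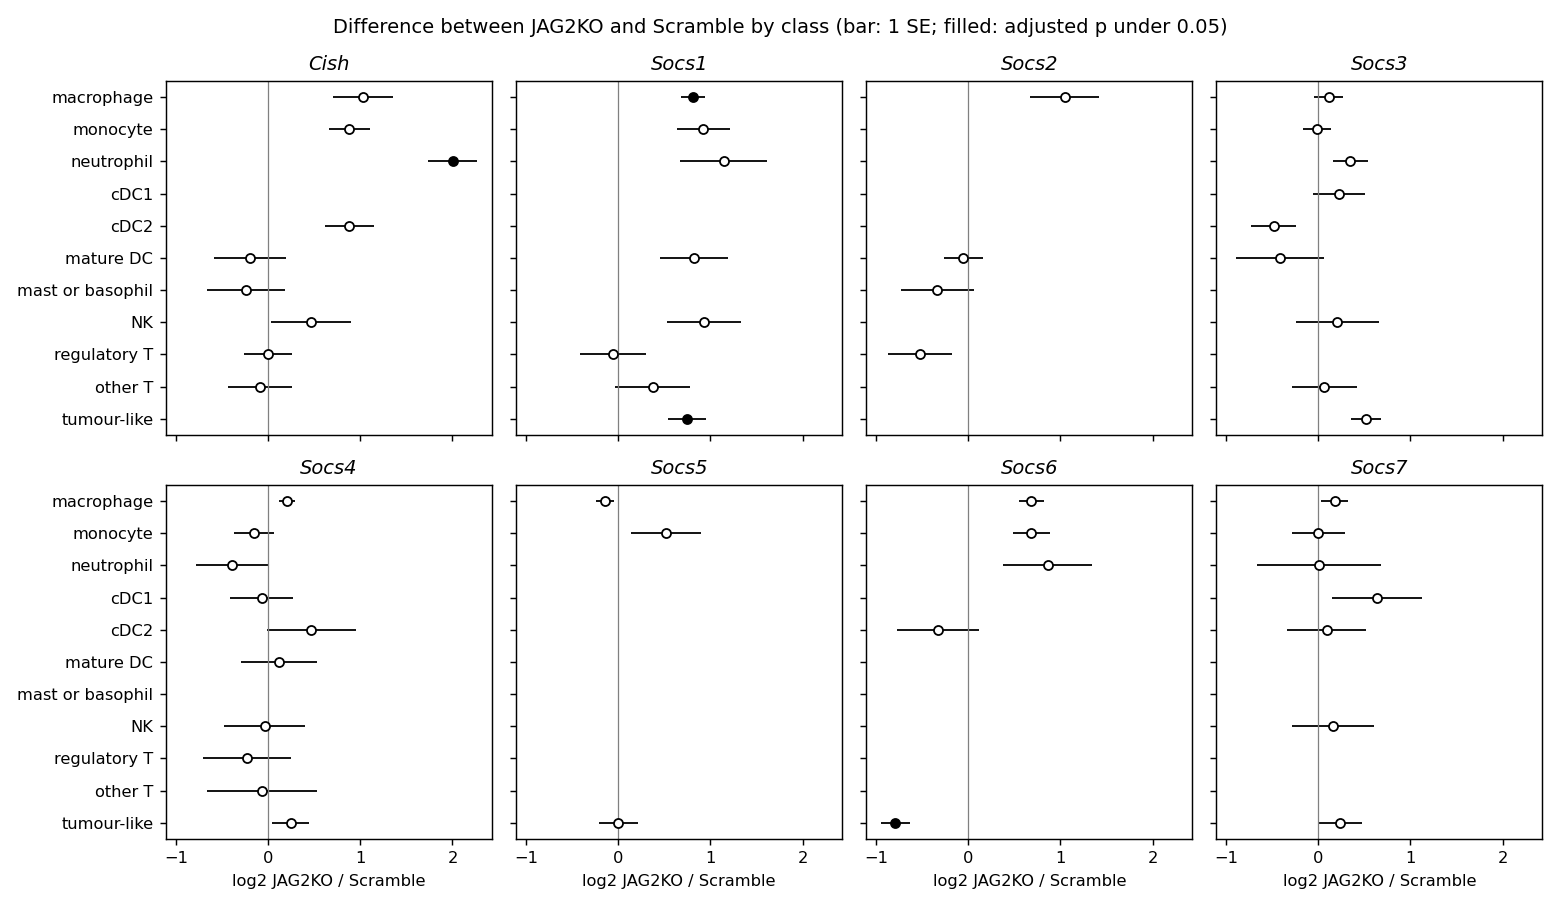
Difference between JAG2KO and Scramble (log2, horizontal axis, with 1 SE) for each member and each class (vertical axis) in which it was tested; filled points passed an adjusted p of 0.05 in edgeR's quasi-likelihood test. Cish in neutrophils lies furthest right among the filled points at 2.004, and Socs6 in tumour-like cells is the filled point left of 0, at -0.79.

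Cish was the member with the largest called difference. In neutrophils it stood at 19.95, 25.95 and 29.1 CPM with Scramble (23, 41 and 38 UMIs) and at 91.95 and 112 CPM with JAG2KO (29 and 41 UMIs). The groups lay apart, as did 17.0% of all genes in the same direction there, and the log2 difference was 2.004 ± 0.27 (SE; adjusted p = 6.9e-04, edgeR's quasi-likelihood test with Benjamini-Hochberg adjustment). The share of neutrophils with a Cish UMI was 2.91%, 4.69% and 4.63% against 12.7% and 12.7%, at median depths of 1578 to 1871 and 1665 and 1179 UMIs. With each cell thinned to 1000 UMIs, leaving out 81 to 108 shallower cells with Scramble and 20 and 80 with JAG2KO, the shares were 1.48%, 3.13% and 2.47% against 10.6% and 11.7%. At that depth 0 of 416 tumour-like cells had a Cish UMI, which allows a share of up to 0.721%, and 0.420% to 1.55% of macrophages had one. Markers of T cells, in which Cish is high, also moved: the 5 T cell markers summed to 13.0, 27.9 and 11.5 CPM with Scramble and 53.9 and 57.3 CPM with JAG2KO in neutrophils, 4 of 5 being higher and 1 lower in both JAG2KO libraries and none at 0 throughout. Among neutrophils without a UMI of any of these 5 markers, Cish stood at 20.4, 24.8 and 29.7 against 97.1 and 109 CPM, a log2 difference of 2.04 (adjusted p = 6.6e-04, same test). That choice left out only 14, 44 and 15 Scramble and 17 and 19 JAG2KO neutrophils. At these depths the absence of a marker UMI says little about T cell RNA in a cell. The part of T cell RNA in the Cish difference was therefore not tested. The difference of the neutrophil change from the macrophage change was 0.73 ± 0.36 on the log2 scale (SE; adjusted p = 0.363, 1 edgeR fit of all classes), so the larger change in neutrophils was not resolved from that in macrophages.

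Cish pointed the same way in macrophages, monocytes and cDC2 without passing the test. In macrophages it stood at 4.25, 5.65 and 9.28 against 11.1 and 15.1 CPM (log2 difference 1.03 ± 0.32, SE, adjusted p = 0.151, edgeR's quasi-likelihood test; 0.0247 with DESeq2). In monocytes the values were 25.6, 25.8 and 44.2 against 66.9 and 50.5 CPM (0.88 ± 0.22, adjusted p = 0.101, same test), and in cDC2 57.9, 37.95 and 78.7 against 98.9 and 124 CPM (0.88 ± 0.27, adjusted p = 0.123, same test). The groups did not overlap in any of these 3 classes, as was the case for 17.8%, 13.0% and 11.9% of all genes in the same direction. In macrophages cDC2 markers summed to 46.6, 43.4 and 68.4 against 141 and 209.5 CPM, and T cell markers to 3.2, 5.8 and 2.4 against 9.0 and 20.3 CPM. In monocytes they summed to 70.2, 47.8 and 47.0 against 126.0 and 132.8 CPM, and to 6.1, 8.0 and 4.1 against 14.3 and 16.5 CPM. Cish is high in cDC2 and T cells, and the part of their RNA in these differences was not tested. In regulatory T cells, where Cish is among its highest, the JAG2KO values lay on either side of the Scramble values and the log2 difference was -0.0018 ± 0.26 (SE). Other T cells (-0.09 ± 0.35), mature dendritic cells (-0.20 ± 0.39) and mast cells or basophils (-0.24 ± 0.42, without the second Scramble library, which had 19 such cells) had differences smaller than their standard errors.

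**Figure D3:**
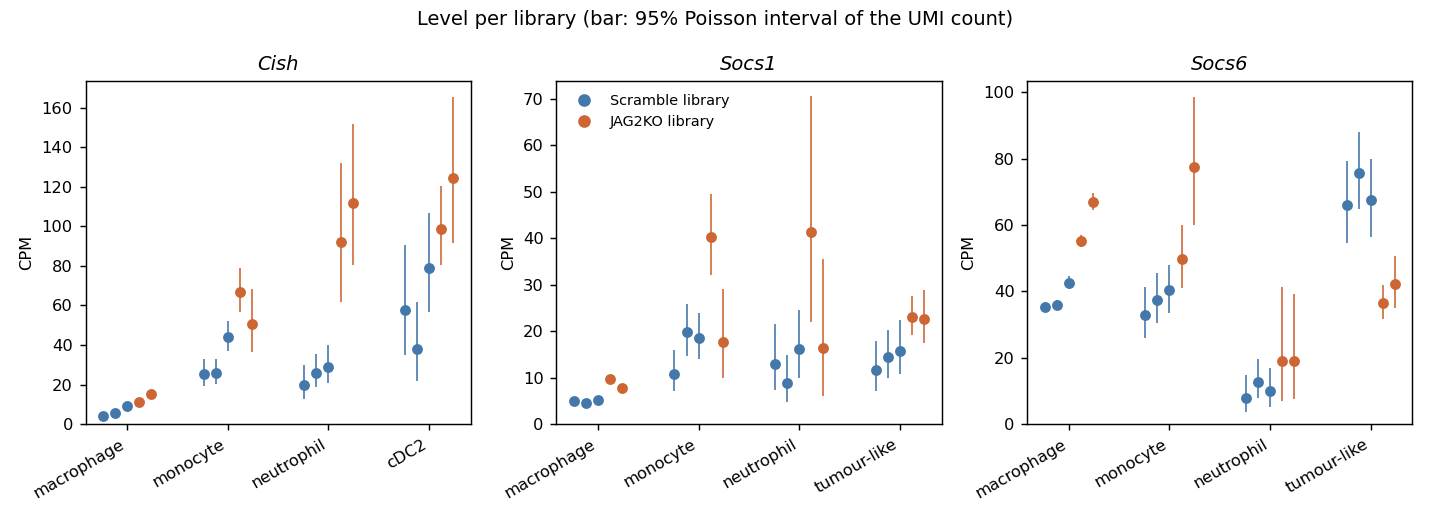
Level (CPM, vertical axis) of Cish, Socs1 and Socs6 in each library of the classes shown (horizontal axis), with 95% Poisson intervals that cover counting error only. The 2 JAG2KO libraries lie above the 3 Scramble libraries for Cish in neutrophils and Socs1 in macrophages, and below them for Socs6 in tumour-like cells.

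Socs1 was higher with JAG2KO in macrophages, at 4.95, 4.62 and 5.26 CPM with Scramble (304, 303 and 261 UMIs) and 9.63 and 7.81 CPM with JAG2KO (620 and 323 UMIs). The groups did not overlap, as for 17.8% of all genes in that direction, and the log2 difference was 0.81 ± 0.13 (SE; adjusted p = 0.0432, edgeR's quasi-likelihood test). The call was lost without the first Scramble (adjusted p = 0.110), the second Scramble (0.157), the first JAG2KO (0.0965) or the second JAG2KO library (0.0736). In macrophages without a T cell marker UMI the values were 4.98, 4.61 and 5.16 against 9.89 and 7.65 CPM (0.83, adjusted p = 0.0410, same test). That choice left out 141, 309 and 113 Scramble and 487 and 541 JAG2KO macrophages. The absence of a marker UMI says little about T cell RNA in a cell, and the part of such RNA was not tested. In tumour-like cells Socs1 stood at 11.6, 14.5 and 15.7 against 23.1 and 22.6 CPM, without overlap like 16.3% of all genes (0.75 ± 0.21, SE, adjusted p = 0.0478, same test). The tumour-like call was lost with DESeq2 (adjusted p = 0.278) and without any single library (adjusted p = 0.0881 to 0.183, edgeR). The log2 difference was positive in 7 of the 8 classes where Socs1 was tested, and in NK cells (0.93 ± 0.40), mature dendritic cells (0.82 ± 0.37), monocytes (0.92 ± 0.29) and neutrophils (1.14 ± 0.47) it did not pass the test, with adjusted p of 0.244 or more. In regulatory T cells it was -0.06 ± 0.36. These classes share the same libraries. Socs1 did not pass the filter on low counts in cDC1, cDC2 and mast cells or basophils, where the groups overlapped. Mean levels there were lower with JAG2KO, at 16.3 against 27.15, 8.03 against 8.77 and 14.1 against 18.6 CPM.

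Socs6 was lower with JAG2KO in tumour-like cells, while in macrophages its values lay higher without passing the test. In tumour-like cells it stood at 66.1, 75.8 and 67.5 CPM with Scramble (114, 173 and 133 UMIs) and at 36.6 and 42.3 CPM with JAG2KO (198 and 120 UMIs). The groups did not overlap, as for 22.7% of all genes in that direction, and the log2 difference was -0.79 ± 0.16 (SE; adjusted p = 0.0100, edgeR's quasi-likelihood test; 0.109 without the first JAG2KO library). Fibroblast markers summed to 4455, 7087 and 5549 CPM in the same Scramble sums and 3104 and 4122 CPM in the JAG2KO sums, 2 of 5 being lower in both JAG2KO libraries and none at 0 throughout. Markers of mature dendritic cells summed to 157, 186 and 188 against 38.4 and 31.0 CPM (3 of 6 lower, 1 higher), and the 2 cycling markers to 403.5, 369.8 and 300.9 against 628.6 and 548.7 CPM (2 of 2 higher). The part of these in the Socs6 and Socs1 differences was not tested. In macrophages Socs6 stood at 35.4, 35.8 and 42.7 against 55.2 and 67.1 CPM, also without overlap, like 17.8% of all genes in that direction. The difference of 0.69 ± 0.14 (SE) missed the threshold (adjusted p = 0.0573, same test), which it passed with DESeq2 (adjusted p = 6.7e-04). Monocytes stood at 32.9, 37.5 and 40.3 against 49.8 and 77.6 CPM (0.68 ± 0.20, SE, adjusted p = 0.206, same test). The change in tumour-like cells minus that in macrophages was -1.43 ± 0.17 (SE; adjusted p = 3.2e-08 in 1 edgeR fit of all classes, in which 8.49% of genes differed between these classes' changes). It was the only called difference of its kind among the 80 that were tested for the 8 members in 10 classes. The share of all genes called was 2.41% in neutrophils, 0.695% in cDC2, 0.228% in monocytes and in other T cells, 0.125% in NK cells, 0.0934% in mature dendritic cells, 0.083% in cDC1, 0.0623% in regulatory T cells and 0.0208% in mast cells or basophils.

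The remaining members gave no call within a class. Socs2 stood at 3.55, 4.10 and 6.64 CPM with Scramble and 6.43 and 13.2 CPM with JAG2KO in macrophages, so the groups overlapped (log2 difference 1.05 ± 0.37, SE, adjusted p = 0.197, edgeR's quasi-likelihood test). In mature dendritic cells, its peak, the difference was -0.05 ± 0.21. Socs3 stood at 131, 173 and 170 against 193 and 150 CPM in macrophages (0.11 ± 0.15). In neutrophils its groups did not overlap, like 17.0% of all genes in that direction, but the difference was 0.35 ± 0.19 (adjusted p = 0.4999, same test). In tumour-like cells Socs3 was at 50.4, 38.6 and 46.2 against 64.5 and 59.99 CPM (0.52 ± 0.16, adjusted p = 0.0758, same test). Socs4 in macrophages was at 31.4 to 35.5 against 37.1 and 40.4 CPM (0.21 ± 0.09, adjusted p = 0.259), and Socs5 at 11.8 to 11.98 against 10.7 and 10.9 CPM (-0.14 ± 0.09, adjusted p = 0.490, same test). Across the macrophage tests 4 of 8 members had both JAG2KO libraries above all Scramble libraries (17.8% of all genes) and 1 below (16.5%). Socs7 was tested in 7 classes and its groups overlapped in each.

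Summed over all kept cells without gates, Socs1 stood at 6.49, 6.88 and 8.26 CPM with Scramble and 15.7 and 12.8 CPM with JAG2KO (log2 difference 0.94 ± 0.13, SE, adjusted p = 0.0093, edgeR's quasi-likelihood test). Socs2 stood at 6.53, 7.19 and 10.4 against 15.0 and 20.5 CPM (1.10 ± 0.23, adjusted p = 0.0340, same test). The groups did not overlap for either, as for 23.5% of all genes in that direction, and 2 of 8 members were called against 6.62% of all genes. Cish (1.03 ± 0.25, adjusted p = 0.0575) and Socs6 (0.50 ± 0.12, adjusted p = 0.0545) missed the threshold in the same test. These sums move with the share of each cell type. T cells, in which Socs1 is high, were a larger share of both JAG2KO libraries. Mature dendritic cells, in which Socs1 and Socs2 are high, were a larger share of kept cells in the first JAG2KO library only (0.33%, 0.35% and 0.41% against 1.24% and 0.39%). As a share of UMIs they were larger in both JAG2KO libraries, with 184590, 186205 and 247175 UMIs against 826256 and 330477. The kept UMIs were 78258185, 84276231 and 68687373 against 90733084 and 69898610. Mast cells or basophils, where Socs2 is also high, were 0.26%, 0.2% and 0.28% of kept cells against 0.41% and 0.44%. The part of makeup in these differences was not tested. The Socs2 call was lost without the first Scramble (adjusted p = 0.105), the second Scramble (0.111) or the second JAG2KO library (0.128).

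Macrophages of at least 2000 UMIs were then split by a UMI of a marker gene. Each cell was first thinned to 2000 UMIs, so that depth did not decide which of these cells held the marker. Shallower macrophages were left out, 30, 29 and 11 with Scramble and 19 and 508 with JAG2KO. The members were compared between cells with and without the marker in the same library. Cxcl9, a chemokine induced by interferon gamma, was found in 102, 337 and 138 Scramble and 538 and 803 JAG2KO macrophages. Socs1 was 2.82-fold higher in cells with Cxcl9, at 34.3, 14.8, 25.4, 16.7 and 18.1 CPM against 5.39, 3.97, 6.02, 10.3 and 6.68 CPM in the cells without it, in the order Scramble 1 to 3 and JAG2KO 1 and 2. It was higher in 5 of 5 libraries (log2 difference 1.49 ± 0.25, SE, adjusted p = 1.8e-06, edgeR's quasi-likelihood test with a library block). With cells thinned to 1000 UMIs the log2 difference was 2.16 (adjusted p = 1.2e-07, same test). Socs2 was 1.93-fold higher, also in 5 of 5 libraries (adjusted p = 0.00783, same test), though this call was lost without the second Scramble (adjusted p = 0.0626) or the first JAG2KO library (0.0572) and with cells thinned to 1000 UMIs (0.592). With Cxcl9 the Socs2 level was 9.80, 11.9 and 14.5 CPM in the Scramble libraries. The Scramble levels of Socs1 and Socs2 with Cxcl9 rest on few molecules, since those 102, 337 and 138 cells held 2000 UMIs each. The 2 members called compare with 7.0% of all genes. Cish (1.38-fold, higher in 4 of 5 libraries, adjusted p = 0.353) and Socs3 (1.11-fold, 4 of 5, adjusted p = 0.294) did not pass. Cells with Cxcl9 were also more frequent in the JAG2KO libraries, so the level of Socs1 within a split is given for each library in the plot of the Cxcl9 split.

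**Figure D4:**
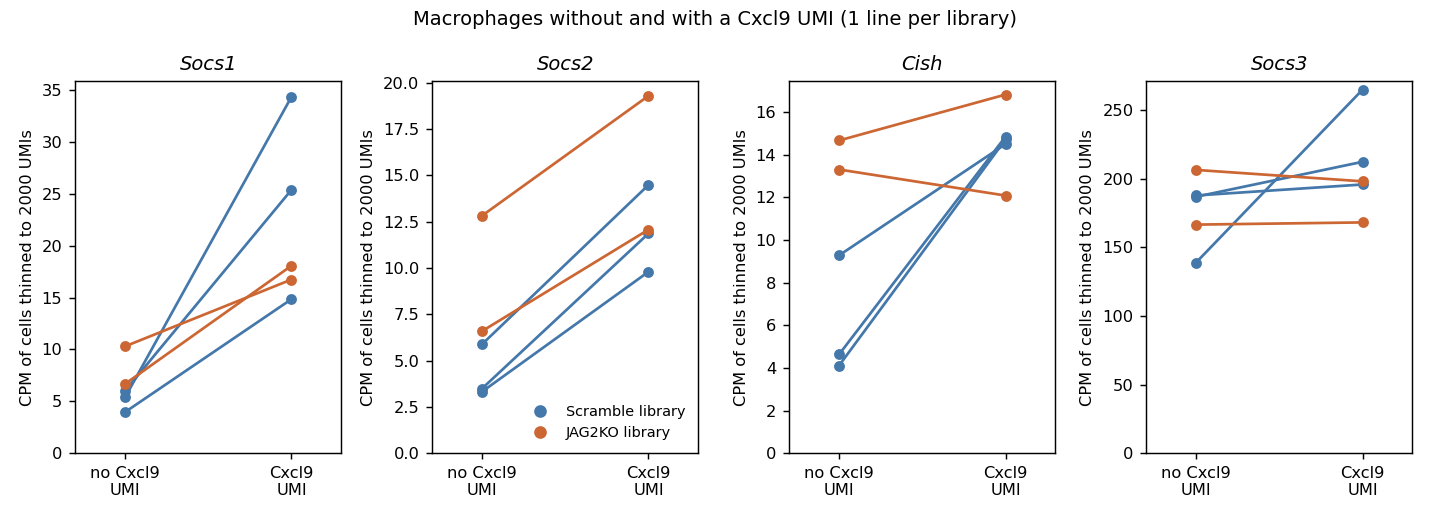
Level (CPM of macrophages thinned to 2000 UMIs, vertical axis) of Socs1, Socs2, Cish and Socs3 in macrophages without and with a Cxcl9 UMI (horizontal axis); each line joins the values of 1 library. For Socs1 and Socs2 all 5 lines rise, and the Socs1 values with Cxcl9 lie between 14.8 and 34.3 CPM.

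Arg1 and Retnla are induced by interleukin 4 and interleukin 13 through Stat6, and Spp1 encodes osteopontin, which is abundant in tumour macrophages. Socs3 was 1.15-fold higher in macrophages with Arg1, at 145, 197, 194, 224 and 167 against 135, 172, 172, 189 and 167 CPM (higher in 4 of 5 libraries, adjusted p = 0.0014, edgeR's quasi-likelihood test). It was the 1 member called, against 15.7% of all genes, and with cells thinned to 1000 UMIs the call was lost (adjusted p = 0.0651). Socs3 was 1.36-fold higher in macrophages with Retnla (4 of 5 libraries, adjusted p = 0.0499, same test), again the 1 member called, against 2.39% of all genes. Only 21, 29 and 44 macrophages of the Scramble libraries held Retnla, and without the first JAG2KO library the log2 difference fell from 0.45 to 0.07 (adjusted p = 0.999). That call was also lost without the second Scramble (0.0933) or the second JAG2KO library (0.0963). No member passed in the Spp1 split (5.47% of all genes), where Cish was 0.682-fold as high with Spp1, lower in 5 of 5 libraries (adjusted p = 0.0770, same test). Socs1 was 0.768-fold as high with Spp1, also lower in 5 of 5 libraries (adjusted p = 0.255, same test).

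The pathway around the members was read in macrophages, the class with the most cells, from lists of its kinases, Stat factors, receptors, ligands and targets. Of 4 Jak kinases, Jak3 fell with JAG2KO (16.6, 18.2 and 19.4 against 12.4 and 11.5 CPM, log2 -0.61 ± 0.11, SE, adjusted p = 0.0482, edgeR's quasi-likelihood test) and the other 3 did not pass. None of 7 Stat factors, 11 other inhibitors (phosphatases, Pias and Cbl proteins) or 6 partners of the SOCS box passed, and none of 14 cytokine ligands tested. Among 28 cytokine receptors Il27ra (0.91 ± 0.16) and Il7r (1.46 ± 0.27) rose and Il4ra (-0.78 ± 0.13) fell. The median log2 difference of all genes was -0.0015, and 1.99% of all genes passed. Those 279 genes were 27 without the first Scramble, 75 without the second JAG2KO and 0 without the second Scramble library, so without that library every macrophage call in these lists was lost.

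Of 10 genes induced through Stat3 only Il4ra passed, lower, and of 10 induced through Stat5 only the cyclin Ccnd2, lower (-0.80 ± 0.10), with list medians of 0.23 and -0.19 (edgeR's quasi-likelihood test). Of 11 genes induced through Stat6, Retnla (3.75 ± 0.48) and the lectin Clec10a (1.37 ± 0.25) rose and Il4ra fell, with a median of 0.81. Il4ra stands in 3 of these lists. None of the 19 dissociation and stress genes passed in macrophages. Alongside, markers of cDC2, which include Clec10a, summed to 46.6, 43.4 and 68.4 against 141 and 209.5 CPM in the macrophage sums, 5 of 6 being higher in both JAG2KO libraries, and markers of T cells to 3.2, 5.8 and 2.4 against 9.0 and 20.3 CPM, 5 of 5 being higher. The part of cDC2 in these differences was not tested.

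In tumour-like cells, where Socs6 fell and Socs1 rose, Jak2 (-0.94 ± 0.23, SE), Stat3 (-0.67 ± 0.17), the ubiquitin ligase Cblb (-1.11 ± 0.24) and the receptors Ghr (-1.52 ± 0.19) and Osmr (-1.34 ± 0.36) fell, and Id1 (0.96 ± 0.26) rose, with adjusted p of 0.0446 or lower in edgeR's quasi-likelihood test, as did 8.45% of all genes. Csf3, the G-CSF gene, stood at 17.97, 5.70 and 4.57 CPM with Scramble and at 0 UMIs in both JAG2KO libraries (adjusted p = 0.0056, same test). These were 1 of 4 Jak kinases, 1 of 6 Stat factors tested, 1 of 11 other inhibitors, 2 of 15 receptors, 1 of 5 ligands and 1 of 8 Stat5 genes. In neutrophils, where Cish rose, Retnla was the 1 gene of these lists that passed (3.85 ± 0.59, adjusted p = 0.0029, same test), and none of 7 Stat5 genes did, against 0.557% of all genes. Retnla stood at 0, 4.43 and 6.89 against 91.95 and 29.99 CPM there, and at 14.6, 13.05 and 29.0 against 376 and 140 CPM in macrophages. Macrophage markers summed to 2253, 2692 and 2073 against 2283 and 2320 CPM in the neutrophil sums, 1 of 8 being higher. The part of macrophage RNA in the Retnla difference was not tested. In monocytes (0.608% of all genes) 3 of 9 Stat6 genes rose, Retnla (4.46 ± 0.61), Mgl2 (1.29 ± 0.23) and Clec10a (1.08 ± 0.23). Retnla stood at 0.867, 0 and 0.953 against 19.4 and 7.05 CPM there. Markers of cDC2, which include Mgl2 and Clec10a, summed to 70.2, 47.8 and 47.0 against 126.0 and 132.8 CPM in the monocyte sums. Of these 6 markers 3 were higher in both JAG2KO libraries. The part of cDC2 or macrophage RNA in the monocyte differences was not tested. In cDC2 (1.45%) Ccl17 (1.40 ± 0.21) and Ccl22 (1.44 ± 0.25) rose, Arg1 (-1.67 ± 0.37) fell, and the receptor Il7r (1.23 ± 0.26) rose. Of the 19 dissociation and stress genes Nfkbia and Dusp1 rose in cDC1 and Dnajb1, Hspa1b and Hspa1a fell in cDC2 (same test).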

How the data were processed

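RNA of sorted CD45+/PI- cells was measured in 3 Scramble and 2 JAG2KO libraries. The deposited values are UMI counts, not normalised, for each gene in each barcode, made with cellranger 6.0.0 per the file headers; the submitters' processing notes name Seurat, GRCm38 and mm10. Barcodes without a cell had been removed, per the series' design text. The counts carry no length or strand correction made here, and reads from a gene and an antisense partner depend on settings not given in the sources used here.

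Barcodes were retained from 500 UMIs and 250 genes upward when mitochondrial genes gave no more than 10% of UMIs, and the 8% with the highest scores in an implementation of the Scrublet method were removed from each library. Cells were gated on UMIs of class markers (for macrophages at least 10 C1q and 2 Csf1r UMIs); the numbers of UMIs asked for were set after seeing marker UMIs and depth, not member values. Of 53050 kept cells 18023 passed no gate and 526 several; neither set was used within classes. UMIs were summed per class and library, leaving out libraries with fewer than 20 cells of the class. Sums were tested with edgeR 4.0.16 (R 4.3.3; TMM, filterByExpr, quasi-likelihood test), with Benjamini-Hochberg adjustment over all genes tested in a class. DESeq2 1.42.0, other filters, clusters in place of gates, thinning, total UMI scaling and leaving out each library were alternatives. Replicates differed by more than counting noise (chi-square per degree of freedom 22.3 to 130). The test was first tried on simulated data with known changes. Members, lists and tests were chosen with earlier results of these data known. Named were all 8 members, up to 3 called genes of each list in a class, and the 3 genes most like each member. Promoters of Socs2, Socs5, Socs6 and Socs7 were not used here. The results of 1 list of target genes are not reported here.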

Additional observations from a re-analysis of the deposited data

Results flagged for a closer look

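Socs6 had JAG2KO differences of opposite sign in 2 classes. The JAG2KO difference in tumour-like cells minus that in macrophages was -1.43 on the log2 scale (adjusted p = 3.2e-08, edgeR, 1 fit of all classes), which is what drew attention to it: Socs6 was lower in both JAG2KO libraries in tumour-like cells and higher in both in macrophages. Of all genes, 8.49% differed between these classes' changes in that fit. The macrophage difference alone did not pass (adjusted p = 0.0573, edgeR's quasi-likelihood test within the class). Marker sums of other cell types also differed in the tumour-like sums, and their part was not tested. The fit itself was added after seeing the data.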

How the results depend on the processing

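Of the members called with JAG2KO, Cish in neutrophils passed under 13 alternatives (log2 1.81 to 2.41) and under scaling by total UMIs. Over all kept cells, where 2 members were called, DESeq2, no filter and scaling by total UMIs called 4 each, and leaving out 1 library 1 to 3. In macrophages, where 1 was called, DESeq2 called 3, no filter 4, clusters 2, total UMI scaling 2, and leaving out 1 library 0 to 3 (3 without the third Scramble library, 0 without any other). In tumour-like cells, where 2 were called, DESeq2, a limit of 5% mitochondrial UMIs, thinning and total UMI scaling left 1 each, and leaving out 1 library 0 to 2. In monocytes, where 0 were called, no filter called 3, thinning 1 and leaving out 1 library 0 to 2; in cDC2, with 0, clusters called 1. In the macrophage splits, thinning to 1000 UMIs left 1 of 2 members for Cxcl9 and 0 of 1 for Retnla, no filter left 0 for Retnla and called 1 (Cish, lower) for Spp1, and leaving out 1 library gave 1 to 2 for Cxcl9, 1 to 2 for Arg1, 0 to 1 for Retnla and 0 to 1 for Spp1. Scaling by total UMIs turned Socs4 in neutrophils over macrophages to -0.037. The number of all genes called moved as well. Alternatives other than leaving out 1 library called 973 to 1654 genes over all kept cells (995 in the main test). They called 534 to 1511 in tumour-like cells (852), 38 to 202 in monocytes (55) and 25 to 181 in cDC2 (78). In the splits they called 428 to 767 for Cxcl9 (739), 89 to 299 for Retnla (246) and 396 to 745 for Spp1 (590). The counts of members are read only beside these. The causes were not tested.

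All genes called in macrophages numbered 279, against 1137 with DESeq2, 1262 without a filter, 782 with the block, 878 with clusters and 0 to 533 without 1 library. Replicate numbers 1 and 2 occur in both groups, and nothing in the labels says that they pair the libraries (r of same-numbered deviations 0.074 and 0.165 in macrophages). With the replicate block 4 members were called over all cells, 4 in macrophages, 3 in monocytes and 1 in cDC2. Clusters gave no value for NK cells, cDC1 and other T cells, nor the block for mast cells or basophils. In classes of under 50 cells in a library, differences of the size seen in macrophages may not be detectable at this depth.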
